A study of Mus musculus with 14 samples.

Results

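Progerin changed the aortic intima of 2 mouse models in different ways, and the subject here is the difference between those changes. For each gene the progerin effect in the ubiquitous model was set against the progerin effect in the smooth muscle model, as the log2 fold change of the first minus the log2 fold change of the second. Of the 22430 genes in the count table, 14269 had enough counts to be tested, and all 14 libraries entered the fit. The libraries came from atherosclerosis-prone mice that lack apolipoprotein E (Apoe-/-), a deficiency that all 4 groups share. The ubiquitous progerin group (Apoe-/-LmnaG609G/G609G, 3 libraries) carries a point change in both Lmna copies by which cells throughout the body make progerin. Its control is the wild-type group (Apoe-/-Lmna+/+, 4 libraries). The VSMC progerin group (Apoe-/-LmnaLCS/LCS SM22Cre, 3 libraries) makes lamin C only, except where a Cre recombinase driven by the SM22α promoter turns on progerin in vascular smooth muscle cells (VSMCs). Its control is the lamin C-only group (Apoe-/-LmnaLCS/LCS, 4 libraries). The models therefore differ in the cells that make progerin, in the lamins of all other cells and in the control, and these cannot be told apart in the difference of effects. Each library is a pool of 12 to 14 mice lysed through the lumen of the thoracic aorta, so n counts pools, and the spread behind each p-value is that from pool to pool.

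Lamin A and lamin C, both encoded by Lmna, form a meshwork under the nuclear membrane. Progerin is a lamin A that lost part of its tail and stays anchored in that membrane, and it causes Hutchinson-Gilford progeria, in which arteries stiffen, lose smooth muscle cells and develop atherosclerosis early. The intima is the inner layer of the artery, lined by endothelial cells that feel blood flow, hold a Notch and BMP dependent arterial identity, and can take on mesenchymal features. A gene can respond in the same way in both models, in 1 of them, or up in one and down in the other, and the difference of effects separates these cases.

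Estimated counts per library totalled 27169784 to 35692385. Lmna (ENSMUSG00000028063, GRCm38 chromosome 3, 88480147 to 88509956) did not pass in the ubiquitous model (119 ± 5.0 against 118 ± 3.3 CPM, counts scaled to a common library size) and rose in the VSMC model (132 ± 6.7 to 227 ± 26 CPM, SD over 4 and 3 pools). Its difference of effects was -0.80 ± 0.10 on the log2 scale (SE, adjusted p = 1.1e-06 by edgeR), and counts per gene do not separate progerin from lamins A and C. For Apoe the difference was 0.14 ± 0.12 (adjusted p = 0.38 by edgeR). The summed level of 6 defining endothelial genes was 20426 to 22317 CPM in wild-type and 17995 to 19085 CPM with ubiquitous progerin. It was 19631 to 21593 CPM in the lamin C-only control and 18358 to 19376 CPM with VSMC progerin, lower without overlap in both models. The sum over 4 defining smooth muscle genes was 380 to 720 CPM in wild-type and 860 to 905 CPM with ubiquitous progerin. It was 313 to 464 CPM in the lamin C-only control and 231 to 289 CPM with VSMC progerin. The higher sum with ubiquitous progerin came from Tagln (208 to 360 against 737 to 808 CPM). Acta2 (159 to 318 against 82.0 to 108 CPM) and Myh11 (8.7 to 28.4 against 4.3 to 7.1 CPM) were lower there, and Cnn1 overlapped with its control. The part of these shifts in the differences was not tested. Wild-type pool 1 stood apart on the third principal component, which held 6.2% of the variance, and had counts for 14331 genes against 14771 to 15466 in the other libraries. VSMC progerin pool 3 carried red cell transcripts, with a sum over 7 erythroid genes of 8561 CPM against at most 586 CPM in any control pool. Mitochondrially encoded genes took 7.68% ± 0.48 of the counts in ubiquitous progerin and 11.8% ± 0.28 in VSMC progerin (SD, n = 3 each).

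Of the genes tested, 6310 (44.2%) differed between both progerin effects, at a Benjamini-Hochberg adjusted p under 0.05 in edgeR's quasi-likelihood test. The effect was higher in the ubiquitous model for 3203 genes (22.4%) and lower for 3107 (21.8%), and for 2001 genes (14% of those tested) the difference was at least 1 on the log2 scale. Without wild-type pool 1 the test called 6336 genes, and without VSMC progerin pool 3 it called 6157. As a reference for how far apart the controls themselves lay, 25 genes (0.175%) differed between lamin C-only and wild-type control. Across the 14269 genes the effects in both models correlated with Pearson's r of 0.36 and Spearman's rho of 0.20, a description across genes that are not independent of each other. The ubiquitous effect itself was called for 54.6% of the genes tested (26.3% higher, 28.3% lower) and the VSMC effect for 42% (19% higher, 23% lower). The median over all genes tested was 0.002 for the difference, -0.005 for the ubiquitous effect and -0.03 for the VSMC effect.

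Among genes called in both models, fewer moved in opposite directions than in the same direction. A gene was counted as opposite when both progerin effects were called, their signs differed and their difference was called. This held for 1519 genes, 10.6% of those tested: 910 (6.38%) rose in the ubiquitous model and fell in the VSMC model, and the others (4.27%) fell in the ubiquitous model and rose in the VSMC model. Without the condition on the difference the count was also 1519, so that condition removed no gene. Scaled to library totals instead of TMM, which moved the median VSMC effect to -0.109, the opposite genes divided into 1182 and 473, and all genes called for the difference into 3719 higher and 2698 lower. Of the 3876 genes called in both models (27.2%), the other 2357 moved the same way. Most opposite changes were modest in size. The median effects were 0.44 and -0.37 on the log2 scale for the first set and -0.61 and 0.47 for the second, and 113 genes (0.792%) had both effects at 1 or more. Of the 1519, 5 also differed between the controls, against 25 of all 14269 genes tested, and leaving out wild-type pool 1 or VSMC progerin pool 3 gave 1541 and 1517 opposite genes.

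Changes in 1 model were more numerous. A further 2619 genes (18.4%) were called in the ubiquitous model and for the difference but not in the VSMC model, 1133 higher (7.94%) and 1486 lower (10.4%). Conversely, 1230 genes (8.62%) were called in the VSMC model and for the difference but not in the ubiquitous model, 519 higher (3.64%) and 711 lower (4.98%), or 418 and 1026 when scaled to library totals. A missed threshold does not show the absence of an effect, so the 95% interval of the other effect was also read. That interval lay within 0.5 on either side of 0 for 2016 ubiquitous-only genes (14.1% of those tested) and 872 VSMC-only genes (6.11%). In 745 genes (5.22%) both effects had the same sign but unequal size, and in 197 (1.38%) the difference was called and neither effect was. The median exon length of the genes that rose in the ubiquitous and fell in the VSMC model was 5186 bases, against 4399 for the reverse set and 4358 for all genes tested. For genes that fell in the VSMC model only it was 5110 bases, so the length was not particular to the opposite set. The median of the mean log2 CPM was 5.99 in the opposite set and 5.56 in the VSMC-only lower set. It was 5.34 in the reverse set and 4.40 over all genes tested. By chromosome, the share of tested nuclear genes that were opposite ran from 8.33% on chromosome 14 to 15.5% on chromosome 12.

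**Figure D1:**
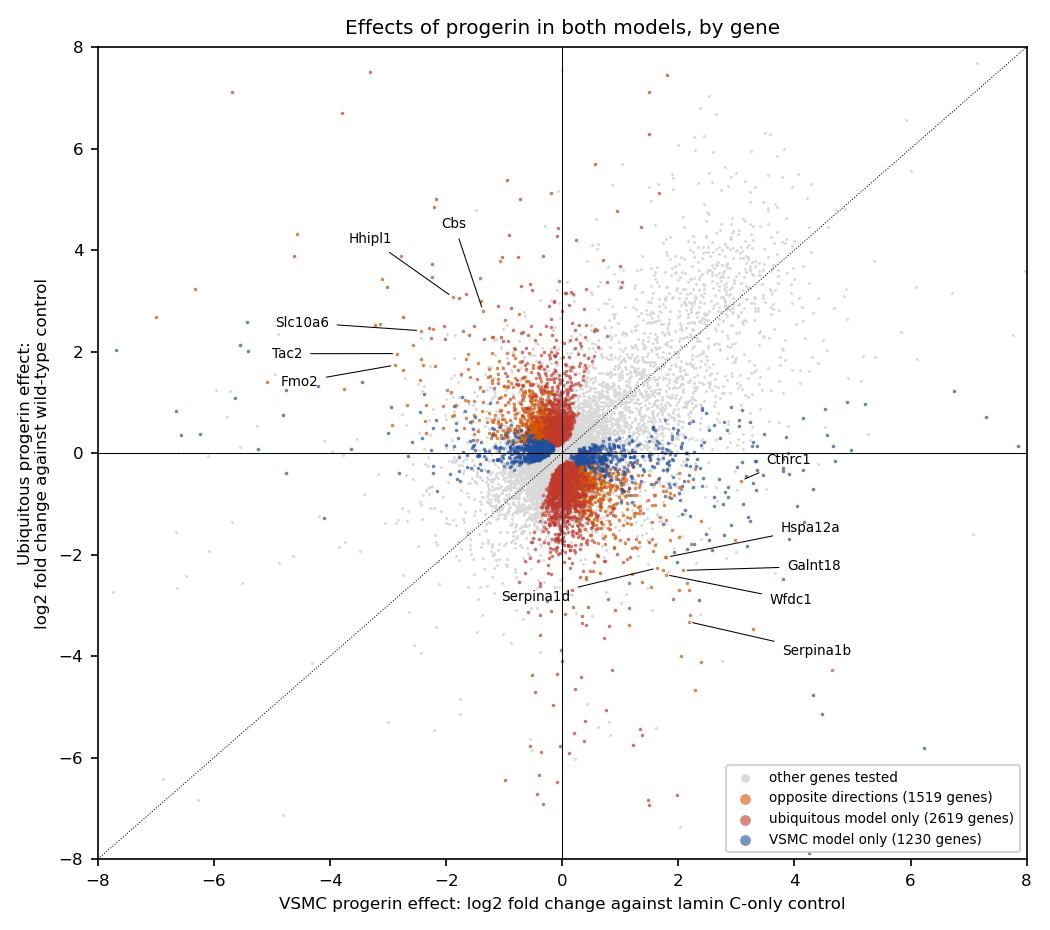
Each dot is 1 of the genes tested, placed by its log2 fold change in the VSMC model (horizontal) and in the ubiquitous model (vertical), with 16 genes beyond 8 on either axis left out; colours mark the classes and the dotted line marks equal effects. The 1519 opposite genes fill the upper left and lower right parts, and the 11 labelled genes are those described by name for their large differences.

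Among genes that fell with ubiquitous and rose with VSMC progerin, the differences were largest for serpins, a glycosyltransferase and secreted matrix-associated proteins. Serpina1b (ENSMUSG00000071178, chromosome 12, 103728156 to 103830373) encodes an alpha-1-antitrypsin type inhibitor of serine proteases. Its level was 15, 17.2, 13.9 and 22.9 CPM in the wild-type pools and 2.39, 1.93 and 0.838 CPM with ubiquitous progerin. It was 20.7, 14.8, 16.9 and 9.41 CPM in the lamin C-only pools and 47.8, 106 and 55.9 CPM with VSMC progerin. The groups did not overlap in either model, and the difference of effects was -5.50 ± 0.58 on the log2 scale (SE, adjusted p = 1.8e-05 by edgeR). Naming a gene by rule required pools that did not overlap with their own control wherever an effect was called. For genes so named, here and below, the separation of pools is no further support. Serpina1d (chromosome 12, 103763594 to 103773592), which lies within the span annotated for Serpina1b, followed at -3.90 ± 0.43. The Serpina1 genes are near-identical copies, so the division of reads between them is uncertain.

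Galnt18 (ENSMUSG00000038296, chromosome 7, 111471661 to 111779977), an enzyme of the family that starts mucin-type O-glycosylation, stood at 4.96, 5.41, 3.71 and 4.83 CPM in wild-type and 0.682, 1.59 and 0.593 CPM with ubiquitous progerin pools. In the lamin C-only pools it was 5.03, 5.53, 5.72 and 4.41 CPM, and with VSMC progerin 27.4, 24.3 and 14.2 CPM. All progerin pools lay outside the range of their control, below it in one model and above it in the other. Wfdc1, a secreted protein with a protease inhibitor fold (chromosome 8, 119666365 to 119688222), fell from 9.66 ± 2.1 to 1.83 ± 0.24 CPM and rose from 9.26 ± 1.2 to 31.8 ± 7.5 CPM. Hspa12a, a distant member of the Hsp70 chaperones (chromosome 19, 58795750 to 58943654), fell from 14.5 ± 1.5 to 3.48 ± 0.89 CPM and rose from 11.5 ± 1.2 to 39.8 ± 11 CPM. For Cthrc1, a secreted protein found in remodelling arteries (chromosome 15, 39076932 to 39087121), the rise carried most of the contrast. Its level was 5.79 ± 1.2 and 3.97 ± 0.77 CPM in wild-type and ubiquitous progerin, and 5.36 ± 0.92 and 45.4 ± 4.5 CPM in the lamin C-only group and VSMC progerin (SD, n = 4 and 3 in each model).

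Genes that rose with ubiquitous and fell with VSMC progerin included Fmo2, a flavin-containing monooxygenase. Fmo2 (chromosome 1, 162874317 to 162898726) stood at 1214, 925, 1258 and 1093 CPM in wild-type, 3834, 3720 and 3636 CPM with ubiquitous progerin, 948, 873, 840 and 1151 CPM in the lamin C-only control and 74.9, 97.7 and 215 CPM with VSMC progerin. No progerin pool overlapped with its control, and the difference was 4.62 ± 0.44.

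Hhipl1, which resembles a hedgehog-binding protein (chromosome 12, 108306270 to 108330869), rose from 4.95 ± 0.50 to 41.7 ± 1.8 CPM and fell from 4.85 ± 1.0 to 1.31 ± 0.30 CPM. Slc10a6, a transporter of steroid sulfates (chromosome 5, 103605711 to 103629403), rose from 14.9 ± 2.4 to 79.4 ± 7.1 CPM and fell from 12.6 ± 2.6 to 2.30 ± 0.26 CPM. Both separated every progerin pool from its controls. Cbs, the enzyme that turns homocysteine into cystathionine (chromosome 17, 31608894 to 31637238), rose from 3.82 ± 0.64 to 26.6 ± 2.8 CPM and fell from 3.57 ± 0.42 to 1.38 ± 0.36 CPM. Tac2, which encodes the neuropeptide neurokinin B (chromosome 10, 127724478 to 127731768), rose from 8.04 ± 1.6 to 31.3 ± 1.3 CPM and fell from 5.48 ± 1.3 to 0.766 ± 0.59 CPM. The adjusted p of the differences for these 11 genes ran from 1.2e-11 for Hhipl1 to 1.9e-05 for Serpina1d by edgeR.

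**Figure D2:**
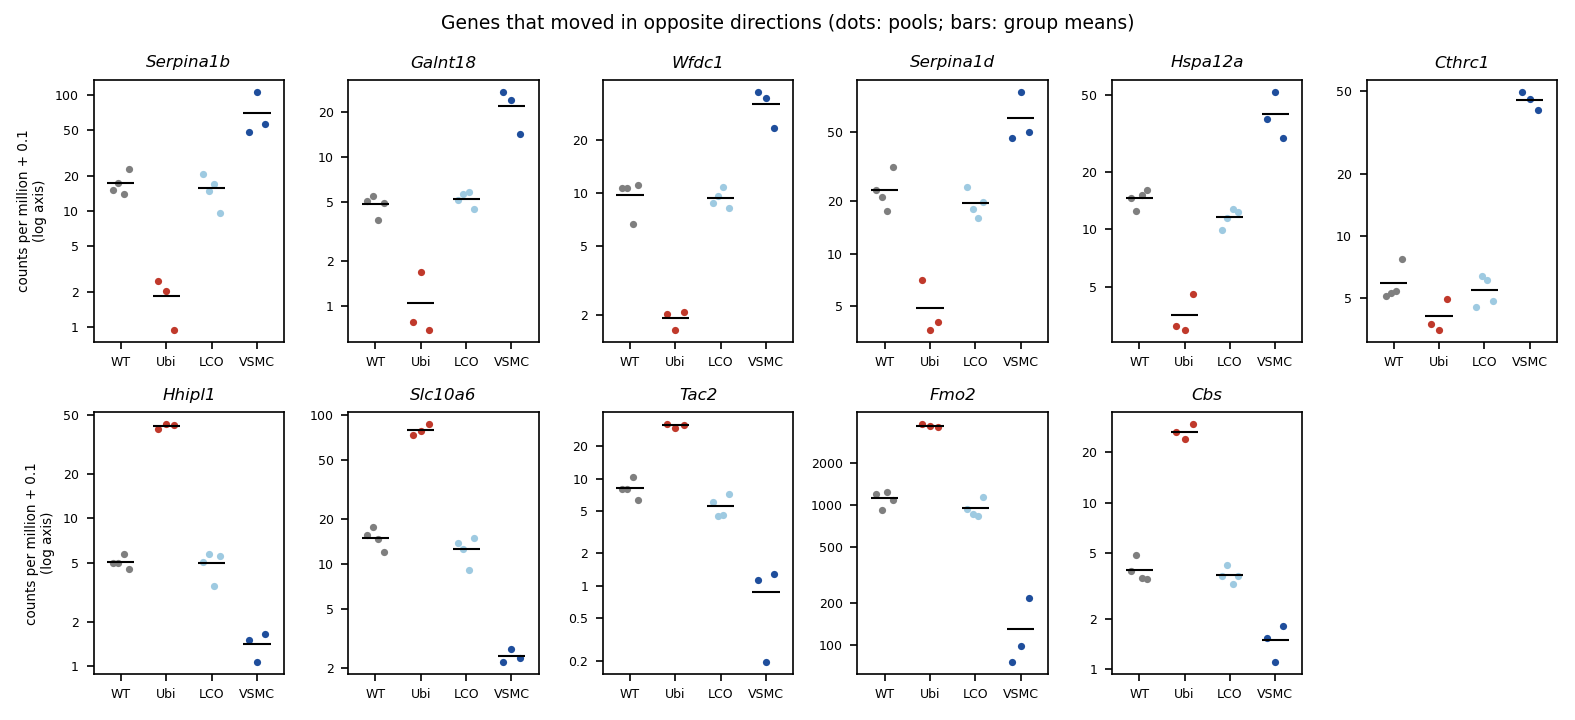
Levels of 11 named opposite genes in CPM plus 0.1 on a log axis, 1 dot per pool and a bar at each group mean, for wild-type (WT), ubiquitous progerin (Ubi), lamin C-only (LCO) and VSMC progerin (VSMC). In the upper row the ubiquitous pools lie below and the VSMC pools above their controls, and in the lower row the reverse. This separation was a condition for naming the genes.

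Extracellular matrix genes gave one of the widest divergences. Collagen chains build fibrils and basement membranes, and their folding and cross-linking enzymes set the strength of that matrix. Of 19 tested collagen chain genes, 0 had a higher and 16 a lower effect in the ubiquitous than in the VSMC model, at a median difference of -1.69 against 0.002 over all genes. In the ubiquitous model 8 fell and 1 rose (median -0.31), whereas in the VSMC model 17 rose and 1 fell (median 1.59). Among the 16, 8 were opposite and 8 changed in the VSMC model alone. Col5a2, a chain that helps set the diameter of collagen fibrils, showed the smallest p. It stood at 545, 482, 501 and 584 CPM in wild-type and 295, 311 and 293 CPM with ubiquitous progerin pools, and at 502, 486, 540 and 499 CPM in the lamin C-only control and 1539, 1552 and 1470 CPM with VSMC progerin. All VSMC progerin pools were above, and all ubiquitous progerin pools below, every control pool, with a difference of -2.40 ± 0.09 on the log2 scale (edgeR, adjusted p = 3.2e-13).

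The basement membrane chain Col4a1 moved the same way, from 725 to 394 CPM and from 819 to 1139 CPM (group means). Col1a1, the main chain of type I collagen, was chosen after its values were seen and belongs to the VSMC-only genes. It ranged from 11.2 to 34.6 CPM over all control and ubiquitous progerin pools and from 361 to 470 CPM with VSMC progerin, with a ubiquitous effect of 0.35 ± 0.40 that did not pass (adjusted p = 0.49 by edgeR). Among 18 folding and cross-linking genes, 0 differed upwards and 16 downwards (median -0.996), with 8 opposite. The collagen chaperone Serpinh1 fell from 189 ± 11 to 119 ± 5.9 CPM and rose from 198 ± 7.6 to 353 ± 21 CPM, and the cross-linking enzyme Lox fell from 438 ± 18 to 237 ± 16 CPM and rose from 436 ± 14 to 604 ± 20 CPM.

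Elastic fibre genes, which give the artery its recoil, followed in part: 11 of 16 differed downwards and 1 upwards (median -0.82), with 4 opposite. Eln, which encodes elastin and was chosen after its values were seen, had 2733, 4190, 3858 and 3938 CPM in wild-type and 2266, 2163 and 2371 CPM with ubiquitous progerin pools. It had 3043, 4142, 3955 and 3720 CPM in the lamin C-only control and 14997, 15371 and 15880 CPM with VSMC progerin. The VSMC pools were thus well above all others and the ubiquitous pools below all controls, at a difference of -2.75 ± 0.19. Mfap5, a microfibril protein, was opposite as well (-1.43), while Emilin1 and Fbn1, further microfibril-associated genes, rose in the VSMC model only (1.17 and 1.07).

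Among 17 matricellular genes 9 differed downwards and 3 upwards (70.6% called, against 44.2% of all genes tested). Sparc, a collagen-binding glycoprotein, had the smallest adjusted p of that list (5.4e-15 by edgeR). Its level lay between 1057 and 1148 CPM in all 8 control pools, between 686 and 713 CPM with ubiquitous progerin and between 3498 and 3772 CPM with VSMC progerin. The growth factor-like Ccn2, chosen after its values were seen, went the other way. It rose from 912 ± 249 to 1843 ± 80 CPM in the ubiquitous model and fell from 713 ± 147 to 275 ± 78 CPM in the VSMC model. Sdc1, a cell surface heparan sulfate proteoglycan, fell from 119 ± 7.0 to 69.4 ± 6.5 CPM and rose from 117 ± 9.5 to 425 ± 28 CPM. Of 19 metalloproteinase and TIMP genes 10 differed downwards and 1 upwards (57.9% called, against 44.2% of all genes tested). The upward one was Timp4, an inhibitor of metalloproteinases (19.7 ± 1.9 to 42.7 ± 1.5 CPM, and 21.4 ± 0.67 to 13.5 ± 1.9 CPM).

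Markers of adventitial fibroblasts, the cells of the outer vessel wall, moved in part with the matrix genes. Over 15 such markers the summed level was 3996 to 4265 CPM in wild-type, 3015 to 3233 CPM with ubiquitous progerin, 4120 to 4419 CPM in the lamin C-only control and 6264 to 7401 CPM with VSMC progerin. Such a sum follows its most abundant members and is not a measure of fibroblast number. From the lamin C-only control to VSMC progerin, Cd34 went from 695 to 736 CPM to 931 to 1020 CPM. Ly6c1 went from 354 to 428 CPM to 801 to 1128 CPM, and Gsn from 478 to 621 CPM to 366 to 408 CPM. Of the 15 markers 8 differed downwards, 6 of them opposite in the same sense, and 1 differed upwards. Pi16, which marks a progenitor-like fibroblast, stood at 194 to 241 CPM in wild-type, 55.4 to 65.2 CPM with ubiquitous progerin, 221 to 240 CPM in the lamin C-only control and 599 to 755 CPM with VSMC progerin. Other fibroblast genes did not follow: Pdgfra and Dcn passed in neither model. Dpep1 stood at 5.74 to 7.02 CPM in wild-type and 13.6 to 23.7 CPM with ubiquitous progerin. It was 5.41 to 24.9 CPM in the lamin C-only control and 4.42 to 5.94 CPM with VSMC progerin. Clec3b was not lower with ubiquitous progerin (9.52 to 11.8 against 10.1 to 13.7 CPM) and was higher with VSMC progerin (11.1 to 25.4 against 29.7 to 33.0 CPM). No defining marker of this cell type was at 0. Markers of other cells outside the intima were also higher with VSMC progerin. The sum over 8 adipocyte genes was 95.7 to 138 CPM in wild-type, 163 to 423 CPM with ubiquitous progerin, 80 to 468 CPM in the lamin C-only control and 738 to 933 CPM with VSMC progerin. That over 8 Schwann and neural genes was 58.2 to 72.9 CPM with VSMC progerin and 18.8 to 23.7 CPM in its control, whereas wild-type had 16.7 to 22.5 CPM and ubiquitous progerin 23.9 to 26.8 CPM. The part of these cells in the matrix result was not tested, and in pooled tissue fewer cells of a type and less RNA per cell cannot be told apart.

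**Figure D3:**
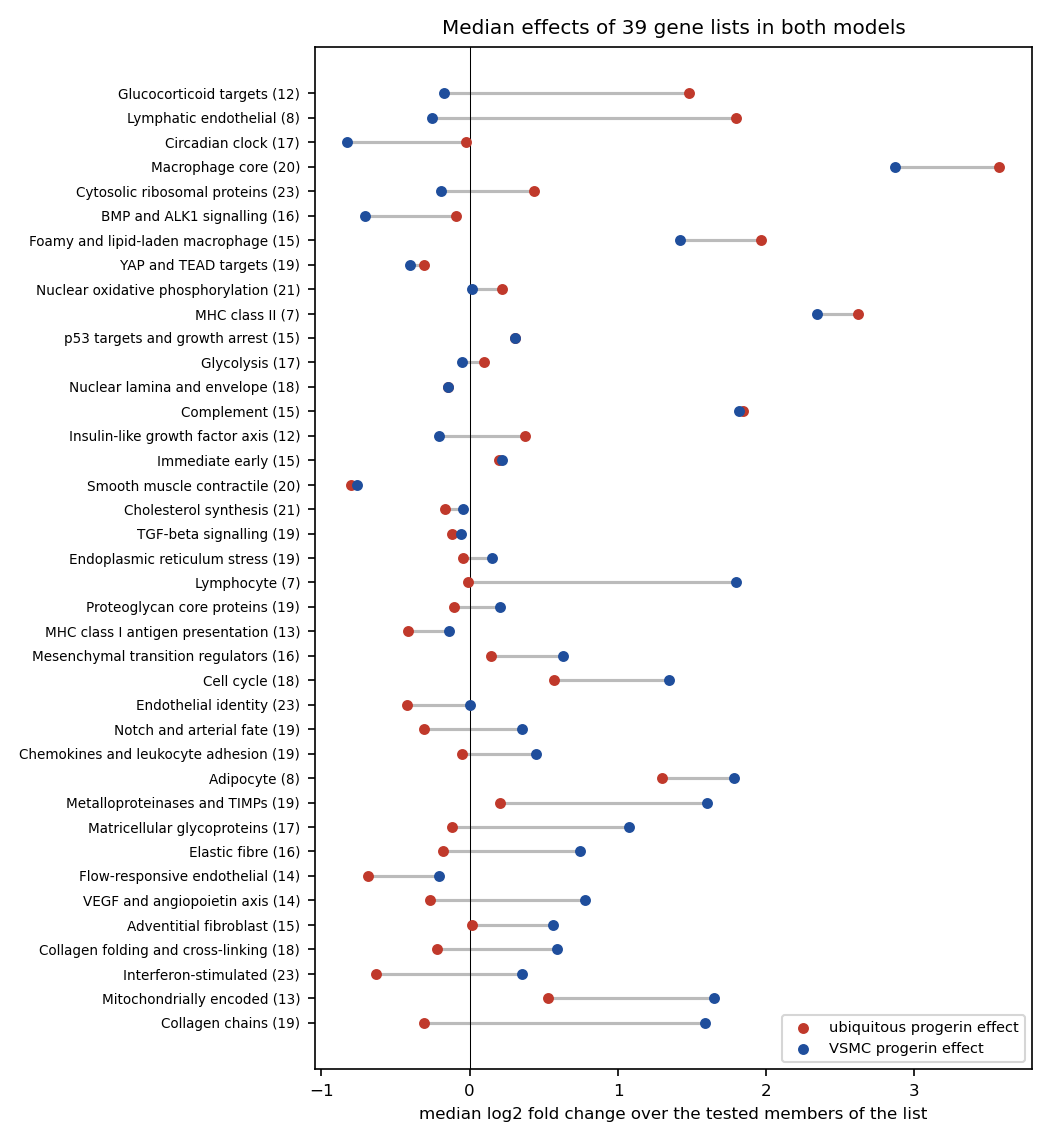
For each of 39 gene lists with at least 7 tested members (number in brackets), the median log2 fold change of its members in the ubiquitous (red) and VSMC (blue) model, ordered by the median difference. Collagen chains lie at the bottom, with medians of -0.31 and 1.59, and glucocorticoid targets at the top, with 1.48 and -0.17.

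TGF-beta and BMP signals, related pathways that act through SMAD transcription factors, divided by member. TGF-beta promotes matrix production and mesenchymal change in endothelial cells, and BMPs signal through ALK1 in the endothelium. Of 19 TGF-beta genes 4 differed upwards and 6 downwards, with 3 opposite in each sense (median difference -0.09). The share called was 52.6%, against 44.2% of all genes tested, and the near-even split is also that of all genes. The ligand Tgfb1 rose in the VSMC model only (88.6 to 145 CPM) and the receptor gene Tgfbr1 rose in both. Pmepa1 and Skil were among those opposite in the sense of the collagens, and Tgfbr3, Smad4 and Ski in the reverse sense. Pmepa1, a feedback inhibitor, stood at 108, 117, 107 and 121 CPM in wild-type, 44.9, 46.2 and 48.8 CPM with ubiquitous progerin, 110, 111, 116 and 97.2 CPM in the lamin C-only control and 232, 258 and 243 CPM with VSMC progerin. No progerin pool overlapped with a control, and the difference was -2.45 ± 0.10 (adjusted p = 4.0e-13 by edgeR).

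Skil, a nuclear repressor of SMADs, moved in the same sense (-0.91). The co-receptor Tgfbr3 moved in the reverse sense, from 74.3 ± 5.9 to 167 ± 13 CPM and from 72.6 ± 4.3 to 61.2 ± 6.4 CPM.

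BMP genes leaned the other way, with 9 of 16 differing upwards and 2 downwards (median 0.58), against 22.4% and 21.8% of all genes tested. The ligand gene Gdf6 fell in both models and further in the VSMC model (-1.85 and -3.84), although limma voom did not call that difference (adjusted p = 0.074, against 0.013 by edgeR). Bmp6 fell in both too (-0.54 and -0.94), with a difference at the threshold (adjusted p = 0.048 by edgeR) that was lost when any of several single pools was left out. Among signal transducers and targets 4 were opposite: Smad1, Smad9, Id2 and Id3 rose in the ubiquitous and fell in the VSMC model. Others did not follow. The target Id1 rose in both (1.04 and 0.53) with a difference that did not pass (adjusted p = 0.075 by edgeR), while DESeq2 called it. The inhibitory Smad6 fell (-0.89) and the transducer Smad5 rose (0.20) in the VSMC model only, and the rise of Smad5 did not pass when scaled to library totals (adjusted p = 0.14 by edgeR). These 3 genes were chosen after their values were seen. Id2, a dominant-negative helix-loop-helix factor induced by BMPs, had 60.4, 60.9, 81.8 and 60.2 CPM in wild-type, 125, 119 and 112 CPM with ubiquitous progerin, 63.4, 71.2, 67.5 and 66.8 CPM in the lamin C-only control and 31.7, 33.5 and 31.4 CPM with VSMC progerin. Both progerin groups were separate from all controls, on opposite sides. Smad9 rose from 7.09 ± 1.4 to 13.7 ± 1.2 CPM and fell from 6.97 ± 1.0 to 1.37 ± 0.23 CPM. Acvrl1, which encodes the ALK1 receptor, fell in the ubiquitous model only (-0.65 and -0.04).

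Most listed endothelial identity genes were lower with ubiquitous progerin, and the list divided with VSMC progerin. Of 23 tested identity genes 15 differed downwards and 6 upwards, at a median of -0.52 (91.3% called, against 44.2% of all genes tested). In the ubiquitous model 15 fell and 5 rose, in the VSMC model 9 fell and 7 rose, and 8 were opposite. The opposite genes that fell in the ubiquitous model were Tie1, Vwf, Nos3, Esam and Cldn5, which encode an angiopoietin co-receptor, von Willebrand factor, nitric oxide synthase and 2 junction proteins. Emcn, Erg and Egfl7 were opposite in the reverse sense. Tie1 stood at 836 to 981 CPM in wild-type, 712 to 734 CPM with ubiquitous progerin, 839 to 937 CPM in the lamin C-only control and 1499 to 1649 CPM with VSMC progerin. Icam2, an adhesion molecule, fell in the ubiquitous model only, from 287 to 385 CPM in the wild-type pools to 85.6 to 98.0 CPM, while its VSMC effect was 0.04 ± 0.09. The general endothelial marker Pecam1 passed in the VSMC model only, at -0.36 ± 0.05.

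Notch keeps arterial endothelium arterial. In the list of 19 Notch and arterial genes 9 differed downwards and 5 upwards (median -0.57), against 21.8% and 22.4% of all genes tested. In 3 genes the effects were opposite in the sense of the collagens and in 1 in the reverse sense. A further 4 moved the same way by unequal amounts. Gja5, an arterial gap junction protein, gave 795, 841, 704 and 1030 CPM in wild-type, 140, 154 and 158 CPM with ubiquitous progerin, 991, 1035, 972 and 904 CPM in the lamin C-only control and 1303, 1337 and 1233 CPM with VSMC progerin. The ubiquitous pools were far below and the VSMC pools above all controls, with effects of -2.48 ± 0.10 and 0.40 ± 0.09 on the log2 scale. The ligand Jag1 was opposite too, falling from 149 ± 13 to 59.9 ± 3.4 CPM and rising from 158 ± 9.7 to 218 ± 54 CPM, as was the target Hes1 (-0.65 and 0.72), which was chosen after its values were seen. Notch1 rose and Notch4 and Dll1 fell in the ubiquitous model only. Among 14 genes of the VEGF and angiopoietin axis 10 differed downwards and 2 upwards (85.7% called, against 44.2% of all genes tested). Vegfa fell from 225 ± 28 to 144 ± 11 CPM and rose from 233 ± 28 to 447 ± 23 CPM. The VEGF receptor genes Kdr, Flt1 and Flt4 rose in the VSMC model alone. Of 14 flow-responsive genes 9 differed downwards and 2 upwards (78.6% called, against 44.2% of all genes tested). In the ubiquitous model 9 fell and 1 rose (median -0.68), in the VSMC model 7 fell and 4 rose (median -0.20). Only 2 were opposite, among them Klf2, the transcription factor induced by laminar flow and chosen after its values were seen (-0.94 and 0.63).

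Interferon-stimulated genes were lower with ubiquitous and higher with VSMC progerin. Interferon signals through STAT2 and IRF9, among others, which bind the interferon-stimulated response element (ISRE) in promoters and induce antiviral genes. Of 23 tested genes 0 differed upwards and 19 downwards, at a median of -1.01. The ubiquitous model had 18 lower and 3 higher (median -0.63), the VSMC model 0 lower and 14 higher (median 0.35), and 11 genes were opposite while 7 fell in the ubiquitous model alone. To show the element beside the values, the 250 bases before the annotated start are printed for 3 opposite genes from RefSeq (GRCm38.p6), 5′ to 3′ along the gene, with capitals for the ISRE core GAAANNGAAA on either strand and overlapping matches merged. Isg15 is a ubiquitin-like protein (chr4:156200819-156201068, minus strand), Oas1a an RNA-sensing synthetase (chr5:120907526-120907775, minus strand) and Stat2 a transducer of the signal (chr10:128270248-128270497, plus strand).
Isg15: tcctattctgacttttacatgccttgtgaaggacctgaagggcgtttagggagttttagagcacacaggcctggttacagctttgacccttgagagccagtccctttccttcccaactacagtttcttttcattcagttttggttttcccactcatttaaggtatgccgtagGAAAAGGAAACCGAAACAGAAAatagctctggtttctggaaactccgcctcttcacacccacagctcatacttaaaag
Oas1a: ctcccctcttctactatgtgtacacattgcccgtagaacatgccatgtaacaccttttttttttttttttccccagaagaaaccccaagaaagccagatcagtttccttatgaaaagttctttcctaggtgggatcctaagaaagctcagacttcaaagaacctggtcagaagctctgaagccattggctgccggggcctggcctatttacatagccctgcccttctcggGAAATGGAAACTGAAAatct
Stat2: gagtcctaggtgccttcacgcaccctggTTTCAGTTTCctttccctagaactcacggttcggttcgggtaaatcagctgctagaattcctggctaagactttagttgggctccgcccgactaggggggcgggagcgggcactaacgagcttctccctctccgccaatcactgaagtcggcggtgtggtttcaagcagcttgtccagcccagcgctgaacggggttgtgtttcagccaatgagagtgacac
The core was present in 9 of 19 listed genes with a window (47.4%), in 3.29% of the 11166 tested genes with a window and in 2.98% of all 32851 windows of that length. A match is a description of the letters and not a measured site.

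Isg15, with 3 such matches, had 11.8, 11, 12.1 and 9.08 CPM in wild-type, 3.85, 11.2 and 5.41 CPM with ubiquitous progerin, 11.4, 12.9, 14.0 and 9.56 CPM in the lamin C-only control and 25.4, 25.5 and 28.8 CPM with VSMC progerin. Its rise separated all VSMC pools from control, but ubiquitous pool 2 lay within the range of its control. Oas1a stood at 11.2 to 12.5 CPM in wild-type, 5.80 to 9.53 CPM with ubiquitous progerin, 9.58 to 12.5 CPM in the lamin C-only control and 20.3 to 24.7 CPM with VSMC progerin, with no overlap in either model. Stat2 fell by 0.46 and rose by 0.39 on the log2 scale. These 3 genes were chosen after their values were seen, and by the naming rule the list was led by Oasl2, a relative of the same synthetase. Oasl2 had 84.4, 70.7, 78.6 and 75.7 CPM in wild-type, 29.6, 38.3 and 36.2 CPM with ubiquitous progerin, 75.6, 74.1, 94.7 and 79.0 CPM in the lamin C-only control and 118, 116 and 113 CPM with VSMC progerin. All progerin pools were outside the control range, at a difference of -1.68 ± 0.13 (adjusted p = 3.9e-09 by edgeR). Irf9, part of the DNA-binding complex, and Rtp4 moved likewise (-0.85 and -1.07). Antigen presentation by MHC class I, which interferon also induces, differed downwards in 8 of 13 genes and upwards in 0 (61.5% called, against 44.2% of all genes tested). Of the 8, 6 fell in the ubiquitous model alone. B2m, the light chain of MHC class I, fell from 1001 ± 54 to 666 ± 25 CPM and was 1096 ± 100 and 1092 ± 54 CPM in the lamin C-only control and VSMC progerin.

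Ribosomal protein genes went in the reverse direction. All 23 tested genes of the cytosolic ribosome differed upwards, at a median of 0.63. In the ubiquitous model 22 rose and 0 fell (median 0.43), in the VSMC model 0 rose and 13 fell (median -0.19), and 12 were opposite. Rpl3, a protein of the large subunit, had 1016, 1057, 1049 and 1019 CPM in wild-type, 1451, 1487 and 1434 CPM with ubiquitous progerin, 1010, 1045, 1010 and 1077 CPM in the lamin C-only control and 822, 904 and 934 CPM with VSMC progerin. The groups did not overlap in either model, although the steps were small (0.49 ± 0.05 and -0.22 ± 0.05). Rplp0, of the ribosomal stalk, rose in the ubiquitous model only (0.67 and -0.06). These genes have processed pseudogenes, so shared reads make single values uncertain. The count of lower genes in the VSMC model was 18 when scaled to library totals and 12 with DESeq2's size factors, and mitochondrial transcripts, which take part of every total, were higher in that model. Mitochondrially encoded genes themselves rose in both, in 12 of 13 and 13 of 13 genes, and more in the VSMC model: mt-Nd4, a subunit of complex I, rose from 4418 to 5350 CPM and from 3518 to 10756 CPM (group means). Of the 13, 4 were also lower in lamin C-only than in wild-type control by edgeR.

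Glucocorticoid targets were higher with ubiquitous progerin. Glucocorticoids act through the receptor encoded by Nr3c1, which binds a paired element (GRE) and induces genes such as Fkbp5, Tsc22d3 and Sgk1. Of 12 tested genes 9 differed upwards and 1 downwards, at a median of 1.66. In the ubiquitous model 11 rose and 1 fell (median 1.48), in the VSMC model 3 rose and 4 fell (median -0.17), with 4 opposite genes (Per1, Zbtb16, Sgk1 and Klf9) and 4 that rose in the ubiquitous model alone. The gene that fell was Nr3c1 itself (-0.60 and -0.15). Fkbp5, a chaperone that restrains the receptor and was chosen after its values were seen, stood at 72.1, 69.7, 77.8 and 103 CPM in wild-type and 483, 557 and 464 CPM with ubiquitous progerin pools. In the lamin C-only pools it was 72.4, 84.5, 61.4 and 78.0 CPM, and with VSMC progerin 50.1, 73.8 and 70.0 CPM. The ubiquitous pools lay far above control and the VSMC pools overlapped with theirs.

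Sgk1, a kinase that regulates ion transport, is shown with its promoter because its window holds the full element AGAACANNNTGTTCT, in capitals, at 189 bases before the start (RefSeq, GRCm38.p6, chr10:21993640-21993889, plus strand, 1 of 6 annotated starts).
Sgk1: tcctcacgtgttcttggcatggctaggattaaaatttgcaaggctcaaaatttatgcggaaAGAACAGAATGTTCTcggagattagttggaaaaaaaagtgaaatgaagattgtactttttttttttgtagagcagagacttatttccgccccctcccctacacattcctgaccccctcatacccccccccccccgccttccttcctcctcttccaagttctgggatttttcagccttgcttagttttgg
Of the 11166 tested genes with a window, 1 held these letters (0.00896%), and the other 9 listed genes with a window did not hold them within 250 bases. Sgk1 gave 285, 306, 288 and 274 CPM in wild-type, 562, 621 and 512 CPM with ubiquitous progerin, 276, 272, 268 and 268 CPM in the lamin C-only control and 128, 160 and 169 CPM with VSMC progerin. No progerin pool overlapped with a control, and the difference was 1.80 ± 0.11 (adjusted p = 2.3e-10 by edgeR). Klf9, a transcription factor, rose from 216 ± 6.2 to 402 ± 32 CPM and fell from 194 ± 12 to 132 ± 19 CPM.

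**Figure D4:**
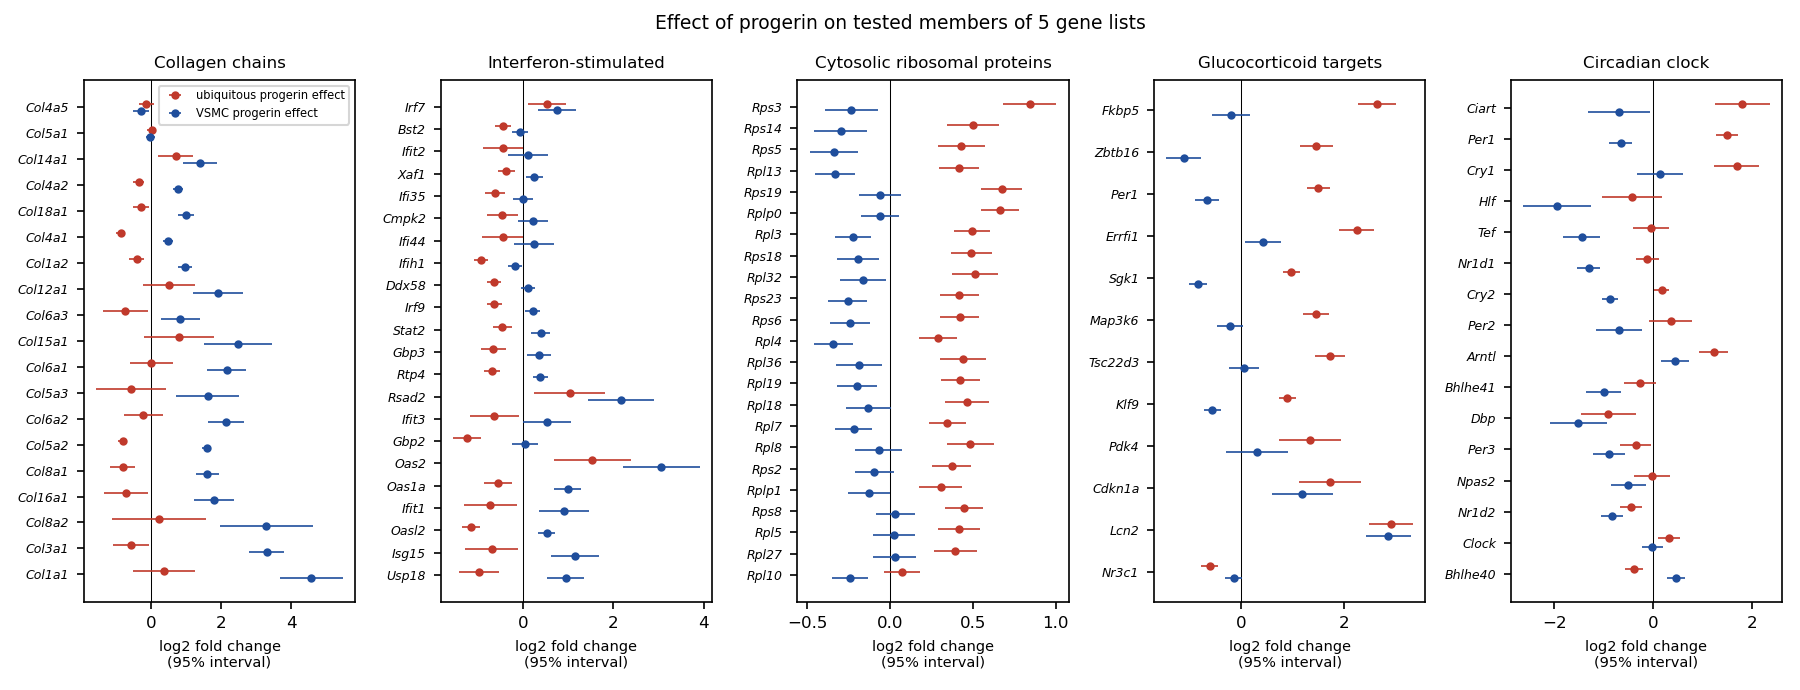
Log2 fold change with its 95% interval for tested members of 5 gene lists in the ubiquitous (red) and VSMC (blue) model, ordered within each list by the difference. Most collagen and interferon genes have red left of blue, and all 23 ribosomal genes have red right of blue.

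Circadian clock genes differed upwards in 12 of 17 cases and downwards in 1, at a median of 1.04. Here the VSMC model carried most of the change, with 12 lower and 2 higher (median -0.83), against 3 lower and 7 higher in the ubiquitous model (median -0.03). Per1, a clock repressor that glucocorticoids also induce, was opposite: 228, 216, 218 and 237 CPM in wild-type, 577, 734 and 590 CPM with ubiquitous progerin, 179, 168, 169 and 180 CPM in the lamin C-only control and 93.9, 101 and 137 CPM with VSMC progerin. Bhlhe40, a repressor, was opposite in the reverse sense (-0.38 and 0.47). Tef, a clock output factor that fell in the VSMC model only (679 ± 19 and 658 ± 24 CPM, against 571 ± 33 and 210 ± 75 CPM) and was chosen after its values were seen, is printed for its E-box, the CACGTG bound by CLOCK and BMAL1 (RefSeq, GRCm38.p6, chr15:81811164-81811413, plus strand, 1 of 2 starts).
Tef: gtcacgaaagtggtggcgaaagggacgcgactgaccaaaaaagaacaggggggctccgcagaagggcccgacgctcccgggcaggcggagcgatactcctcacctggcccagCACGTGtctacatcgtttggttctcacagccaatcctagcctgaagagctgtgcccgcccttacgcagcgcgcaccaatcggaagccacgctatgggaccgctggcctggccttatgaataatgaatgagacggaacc
An E-box was present before the start of 5 of 14 listed genes with a window (35.7%) and of 9.43% of the 11166 tested genes. The controls themselves differed for 3 clock genes, Arntl, Npas2 and Bhlhe41, by edgeR, with Arntl (BMAL1) at 10.7 ± 0.69 CPM in wild-type and 21.7 ± 2.4 CPM in the lamin C-only control. The labels give no time of day, and the part of sampling time in this list was not tested.

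Stress and growth lists divided into both directions, as all genes tested did (22.4% upwards and 21.8% downwards), so their counts set none of them apart and single members are described. Of 15 p53 target and growth arrest genes 5 differed upwards and 4 downwards (60% called, against 44.2% of all genes). Sesn1, a stress-induced brake on mTORC1, had 62.6, 70.9, 70.0 and 66.2 CPM in wild-type, 245, 301 and 245 CPM with ubiquitous progerin, 66.4, 60.0, 60.2 and 72.0 CPM in the lamin C-only control and 31.5, 34.6 and 34.1 CPM with VSMC progerin. Plk2, a kinase of the stress response, followed it (1.66 and -1.27), with no overlap for either gene. Phlda3, an inhibitor of AKT chosen after its values were seen, did the reverse (-1.47 and 0.62). In the insulin-like growth factor list, 4 of 12 genes differed upwards and 3 downwards (58.3%). The receptor Igf1r rose from 87.9 ± 7.6 to 114 ± 5.6 CPM and fell from 83.5 ± 6.0 to 36.7 ± 6.9 CPM. The binding protein Igfbp3 rose in the ubiquitous model only, from 5.74 ± 2.1 to 124 ± 17 CPM, with 15.4 ± 4.2 and 14.5 ± 4.4 CPM in the lamin C-only control and VSMC progerin. Among glycolytic genes, 5 of 17 differed in each direction (58.8%), and the glucose transporter Slc2a1 was opposite (1.41 and -0.36). In the nuclear lamina and envelope list 5 of 18 differed upwards and 7 downwards (66.7%): the lamin B receptor Lbr rose and fell (0.34 and -0.62), and the nesprin Syne1 fell and rose (-0.76 and 0.60).

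Macrophage genes were not part of the divergence in direction. All 20 tested macrophage genes rose in both models, with medians of 3.57 and 2.87, and 8 of them rose further in the ubiquitous model. The summed level of these genes was 123 to 209 CPM in wild-type, 1252 to 1959 CPM with ubiquitous progerin, 116 to 333 CPM in the lamin C-only control and 941 to 1083 CPM with VSMC progerin. Smooth muscle contractile genes differed in 40% of 20 cases, 4 each way, against 44.2% of all genes, and had median effects of -0.80 and -0.76. Tagln, which encodes SM22α and was chosen after its values were seen, rose in the ubiquitous model only, from 208 to 360 CPM in the wild-type pools to 737 to 808 CPM, and was 165 to 244 CPM in the lamin C-only control and 137 to 195 CPM with VSMC progerin. Acta2, the smooth muscle actin gene, also chosen after its values were seen, fell in both models, from 213 ± 74 to 92.6 ± 14 CPM and from 172 ± 33 to 86.1 ± 1.8 CPM. Within that list Cald1, an actin-binding protein also made outside muscle, was opposite (-1.09 and 1.12).

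The genes that changed in 1 model and had a narrow interval around 0 in the other were described last. In the ubiquitous model the receptor phosphatase gene Ptpru (ENSMUSG00000028909, chromosome 4, 131768457 to 131838288) rose from 26.2, 28.1, 24.6 and 20.3 CPM to 180, 194 and 186 CPM. It was 25.8, 20.1, 19.4 and 21.9 CPM in the lamin C-only control and 25.0, 19.6 and 26.4 CPM with VSMC progerin, which overlapped. Its VSMC effect was 0.12, with a 95% interval from -0.14 to 0.37. Fam107b rose by 2.23 ± 0.14 and Btg3, an antiproliferative gene, by 2.00 ± 0.10 in the same model. On the falling side Hebp2, a heme-binding protein (ENSMUSG00000019853, chromosome 10, 18539498 to 18546076), went from 7.58, 7.21, 6.38 and 9.87 CPM to 0.375, 0.445 and 0.524 CPM. Its level in the other model was 5.5 to 8.03 CPM in control and 5.78 to 8.38 CPM with progerin, so those pools overlapped (effect -0.01, interval -0.42 to 0.40). Serpinb1a, an inhibitor of neutrophil elastase, and Specc1, a cytoskeletal coiled-coil protein, fell by 2.16 and 2.08 on the log2 scale in the ubiquitous model.

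In the VSMC model P2ry6, a receptor for extracellular UDP (ENSMUSG00000048779, chromosome 7, 100937630 to 100974649), rose from 14.3, 16.0, 17.4 and 13.1 CPM to 53.8, 63.4 and 50.1 CPM. The wild-type pools had 14.1, 15.8, 14.0 and 21 CPM and the ubiquitous progerin pools 18.9, 15.2 and 15.4 CPM. Only the VSMC progerin pools stood out, and the ubiquitous effect was 0.02, with an interval from -0.27 to 0.32. Dbn1, the actin-binding protein drebrin, and Flt1, a receptor and decoy for VEGF, rose by 1.79 ± 0.13 and 1.73 ± 0.17. Krt18, a keratin (ENSMUSG00000023043, chromosome 15, 102028180 to 102032027), fell from 140, 131, 127 and 145 CPM to 27.6, 35.6 and 54.8 CPM. In the other model it ranged from 99.8 to 144 CPM in control and from 114 to 124 CPM with progerin. Cited2, a coactivator that binds CBP and p300, fell by 1.63 on the log2 scale and the surface glycoprotein gene Cd24a by 1.50, from 647 ± 31 to 228 ± 18 CPM. Cd24a stood at 664 ± 27 and 692 ± 36 CPM in wild-type and ubiquitous progerin.

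**Figure D5:**
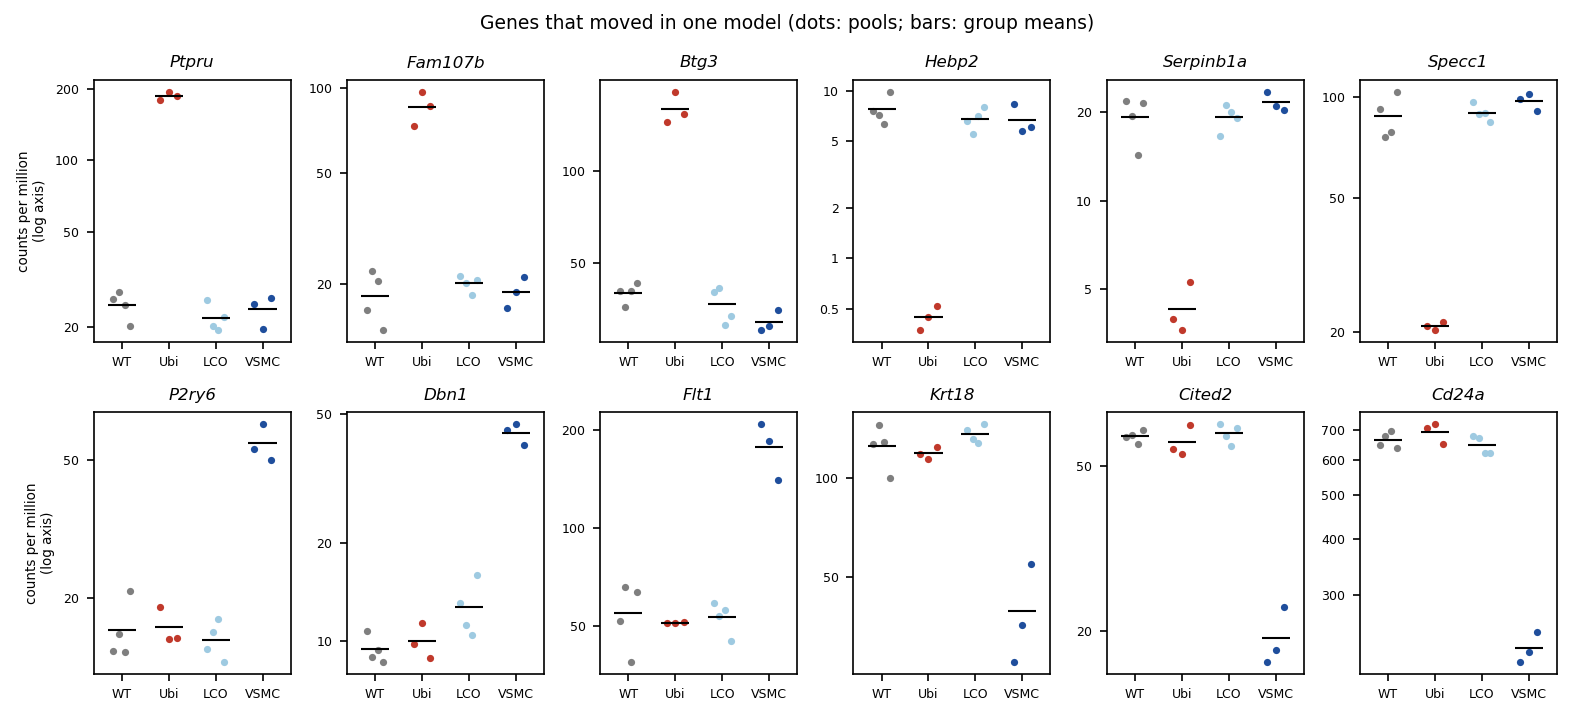
Levels in CPM on a log axis, 1 dot per pool and a bar at each group mean, of 6 genes that changed in the ubiquitous model only (upper row) and 6 in the VSMC model only (lower row). In each panel 1 progerin group stands apart from the other 3 groups. Its separation from its own control was a condition for naming the genes.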

How the data were processed

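RNA was sequenced from 14 pools of aortic intima (100 ng of total RNA, polyadenylated RNA, strand-marking kit, per the labels' protocols). The deposited table holds expected counts per gene, estimated by the authors with RSEM 1.2.28 after Trim Galore 0.6.10, cutadapt 4.1 and STAR 2.7.10b on GRCm38, per the submitters' processing notes. A second deposited table holds the authors' log2 values, which served as an alternative. The annotation release and the strand setting of the counting were not given in the sources used here, so genes that overlap on opposite strands are uncertain.

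Counts were rounded to whole numbers, filtered with filterByExpr (minimum count 10, minimum total 15), scaled by TMM and fitted for all 14 libraries and 4 groups with edgeR 4.0.16 in R 4.3.3 (quasi-likelihood test, robust, 2-sided, Benjamini-Hochberg adjustment over 14269 genes, threshold 0.05). The common dispersion was 0.0187 and the fit had 10 residual degrees of freedom. Levels are TMM-scaled CPM, which are not divided by gene length, so levels are compared between samples and not between genes. The SE of a log2 fold change was taken from the fold change and its F statistic. Totals of 27169784 to 35692385 counts per library set the precision of low genes. Gene positions came from GENCODE M21 (22388 of 22430 identifiers matched). Promoter windows came from RefSeq.

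Members and the 41 gene lists were chosen with earlier results of these data known. Genes were named by a rule: a mean log2 CPM of at least 2, a called difference, and pools not overlapping with the own control wherever an effect was called. Of these, the 6 largest differences in each opposite sense, the 3 largest effects in each direction for each model alone (with the 95% interval of the other effect within 0.5), and up to 3 genes per list by the smallest p were taken, with Lmna and Apoe always included. Some genes that met the rule are not reported here. In simulated counts with 200 changed genes, 178 were called for the difference along with 6 unchanged genes. Alternatives were DESeq2 1.42.0, limma 3.58.1 (voom, and on the deposited log2 values), other filters and scalings, a stricter threshold, a replicate block and leaving out each pool.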

Additional observations from a re-analysis of the deposited data

Results flagged for a closer look

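The difference between both progerin effects was itself tested and called for 6310 genes, of which 1519 moved in opposite directions. Among the control groups of 4 pools, 1 pool stood far from the other 3 in 13 of 222 groups looked at over 111 genes, and chance alone gives about 1 in 20. The measure is the gap to the nearest pool over the whole range of the log2 levels. In the wild-type group, pool 4 was the highest for Bhlhe40 (0.845), Cthrc1 (0.874), Phlda3 (0.857), Pi16 (0.864) and Serpinh1 (0.843). Pool 3 of that group was the highest for Id2 (0.96) and Plk2 (0.894) and the lowest for Wfdc1 (0.924), and pool 1 was the lowest for Skil (0.833). In the lamin C-only group, pool 2 was the highest for Bhlhe40 (0.881) and Phlda3 (0.874). Pool 4 of that group was the highest for Dcn (0.856) and the lowest for Nos3 (0.895).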

How the results depend on the processing

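At an adjusted p under 0.01 by edgeR, 922 genes were opposite (560 and 362 in the 2 senses) in place of 1519. Leaving out 1 pool at a time gave 5736 to 6336 genes for the difference, 1264 to 1541 opposite, 2252 to 2876 ubiquitous-only and 1017 to 1308 VSMC-only genes. DESeq2 called 6562 differences and 1557 opposite genes, and 91.4% of the 1519 were opposite there too. Scaling to library totals divided the VSMC effect into 2272 higher and 4435 lower genes, against 2705 and 3283. Same-numbered pools did not deviate together (correlations of -0.05 to 0.02 over 6 pairs), so the numbers were not taken as pairs, and the replicate block gave 6253 differences and 1446 opposite genes. Of the genes named in the text with a called difference, none changed its direction in these settings, while Bhlhe41, Bmp6, Gdf6 and Smad5 lost the call in at least 1. The difference for Id1 passed in 6 settings, among them DESeq2 (adjusted p = 0.020). Few counts limit Tac2 in VSMC progerin and Hebp2 and Galnt18 in ubiquitous progerin.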
